A study of Homo sapiens with 10 samples.

Results

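The promoters of 10 genes of the Fanconi anaemia pathway were examined for binding of Rb, the retinoblastoma tumour suppressor. The genes were FANCA, FANCC, FANCD2, FANCE, FANCF, FANCG, FANCI, FANCL, FANCM and UBE2T, out of 19962 protein-coding genes on chromosomes 1 to 22 and X. They were listed by name, with earlier results of these data known. A gene was given the Rb peaks that overlapped its promoter by at least 1 bp, where the promoter ran from 2000 bp upstream to 500 bp downstream of any of its transcript starts in GENCODE release 44 (hg38). Rb occupancy had been profiled by CUT&RUN, a method that sequences the DNA cut free by a nuclease held at the protein by an antibody. Both cell lines, OVCAR-3 and Kuramochi, derive from high-grade serous ovarian cancer and are labelled as wild type, and they were treated with DMSO or with 300 nM of the CDK2 inhibitor INX-315 for 2 days. Each of the 4 groups (OVCAR-3 DMSO, OVCAR-3 INX-315, Kuramochi DMSO, Kuramochi INX-315) had 2 Rb libraries from independent cultures, and each line had 1 IgG2a control library from DMSO-treated cells. Peak lists carry no expression level, so the identity of the lines was not checked here against marker genes.

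Rb, held on DNA by E2F factors, represses transcription of their target genes until cyclin-dependent kinases phosphorylate it, and inhibitors of those kinases keep it in the form that binds E2F. The Fanconi anaemia pathway repairs DNA crosslinks that block replication forks. FANCM brings a core complex, which holds FANCA, FANCC, FANCE, FANCF, FANCG and the ubiquitin ligase FANCL, to the lesion. FANCL and the conjugating enzyme UBE2T then attach ubiquitin to the FANCI-FANCD2 pair (the ID2 complex), which clamps onto DNA and recruits repair factors.

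An E2F string lay within 150 bp of the median Rb summit at FANCA, FANCD2 and FANCG. Strings were sought on both strands in 300 bp centred on the median summit of the highest promoter peak, and the E2F strings were TTTCCCGC, TTTCGCGC, TTTGCCGC and TTTGGCGC. These 3 of 10 genes stand beside 11.8% of 3079 such windows of genes with a promoter peak in all 8 Rb libraries. FANCD2, with a peak in 5 libraries, and FANCF, with a peak in 7, are not of that class. Of 35116 RefSeq promoters of the same length (GRCh38.p14), 3.31% held an E2F string. The 3 sites shown lie near the median summits of the family's strongest peak (FANCG), its weakest (FANCD2) and that of FANCA. Each is 30 bases of hg38 on the strand of its gene, with the string in capitals, at chr16:89816801-89816830 (minus strand), chr3:10026424-10026453 (plus strand) and chr9:35079788-35079817 (minus strand).
FANCA: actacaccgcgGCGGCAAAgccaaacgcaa
FANCD2: cgtcgggcctgGCGGGAAAgtcgaaaacta
FANCG: tcctccccgagTTTCCCGCgggaactaact
At FANCA and FANCD2 the string was read on the strand opposite to the gene. FANCD2 summits spread over 490 bp in 5 libraries, and the peak of Kuramochi INX-315 library 1 began past the string, at chr3:10026453. The sites were centred 169 bp upstream of the main transcript start (the MANE Select transcript) at FANCA, 2 bp downstream of it at FANCD2 and 139 bp downstream of it at FANCG.

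The other strings were also counted in these windows. The SP1 string GGGCGGG was in the windows of 4 of 10 genes (FANCE, FANCG, FANCL and FANCM) and in 63.3% of the windows of genes bound in all 8 libraries. CCAAT was in 3 (FANCA, FANCC and UBE2T) against 32.6%, and the ETS string CCGGAAG was in 1 (FANCD2) against 13.2%. The cell cycle homology region string TTTGAA and the NRF1 string GCATGCGC were in 0 of the 10 windows, against 6.66% and 3.51%. The FANCM window was that of its upstream peak, inside the gene FKBP3. A window on the peak at the FANCM start held none of these strings. No test was made on these counts. The windows held 16 to 37 CpG dinucleotides, with a median of 27 against 30 over all windows.

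The 200 bases upstream of the outermost start within 1000 bp of the main one were read for 9 of the 10 genes, FANCI being the other. FANCC and UBE2T are shown for the matches they held. FANCC held 2 E2F strings, both outside its summit window. UBE2T held the only TTTGAA match of the stretches read, with a pair of CCAAT boxes. FANCF, not shown, also held a pair of CCAAT boxes. Both stretches are hg38, minus strand, with every match in capitals, at chr9:95317716-95317915 and chr1:202341985-202342184.
FANCC: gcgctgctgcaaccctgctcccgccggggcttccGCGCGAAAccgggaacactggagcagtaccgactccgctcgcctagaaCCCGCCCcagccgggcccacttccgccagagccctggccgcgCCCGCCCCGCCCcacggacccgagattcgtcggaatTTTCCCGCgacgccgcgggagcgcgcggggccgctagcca
UBE2T: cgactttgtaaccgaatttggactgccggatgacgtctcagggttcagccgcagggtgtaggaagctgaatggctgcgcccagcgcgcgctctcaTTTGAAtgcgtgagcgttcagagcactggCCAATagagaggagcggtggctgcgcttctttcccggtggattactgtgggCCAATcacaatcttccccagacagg
The capitals mark E2F and SP1 strings at FANCC (2 of the SP1 matches overlap) and TTTGAA and CCAAT at UBE2T. Of the 9 stretches read, E2F strings were in 1, TTTGAA in 1, CCAAT in 3 and the SP1 string in 2. The ETS and NRF1 strings were in 0 of 9. In the same 200 bases of all RefSeq promoters, E2F strings were found in 2.27%, TTTGAA in 10.3%, CCAAT in 28.0% and the SP1 string in 29.3%. The ETS and NRF1 strings were found there in 7.71% and 2.44%.

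**Figure D1:**
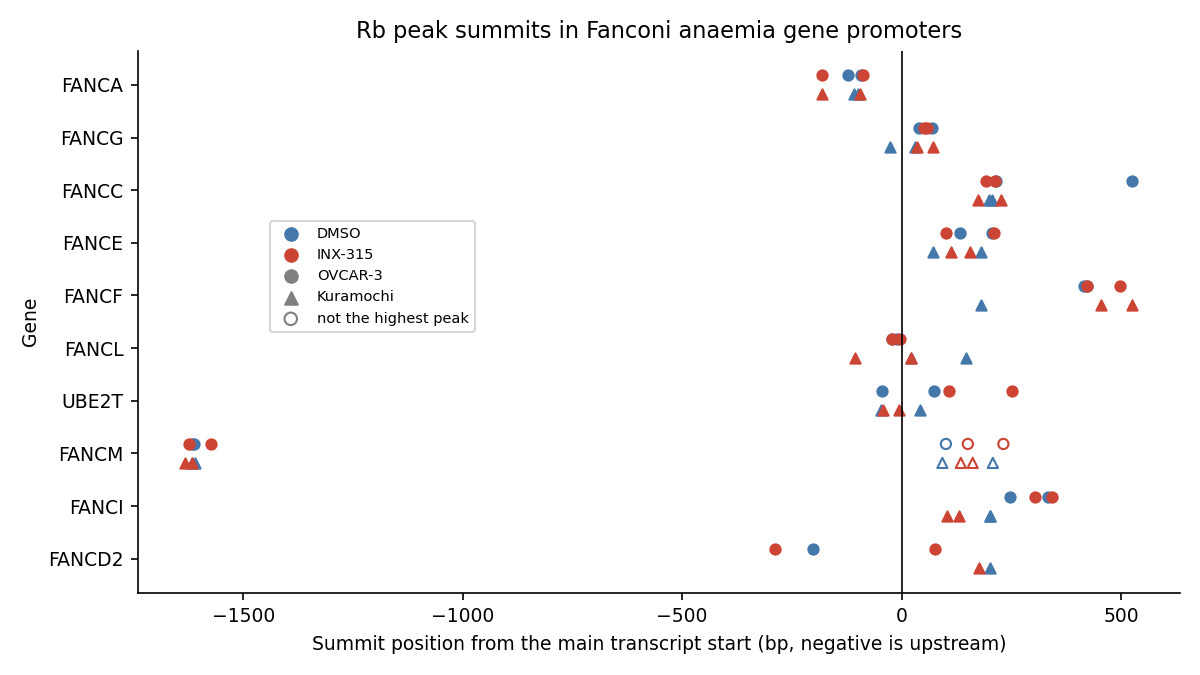
Position of each Rb peak summit (horizontal axis, bp from the main transcript start, negative upstream) for the 10 genes (vertical axis), with colour for treatment, shape for cell line and open symbols for peaks that were not the highest of the promoter (a small peak at an internal FANCA start is left out). Highest summits of 9 genes lay within 526 bp of the start, whereas the highest FANCM peak lay 1573 to 1632 bp upstream.

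Most summits sat at the start of the gene. FANCG was the tightest against its start, from 26 bp upstream to 71 bp downstream of it. FANCE summits fell 72 to 210 bp and FANCI summits 104 to 342 bp downstream, and UBE2T and FANCL summits lay on both sides of the start. FANCA summits lay 87 to 181 bp upstream of the main start, inside the span of its other annotated starts. FANCF, a gene of a single exon, had its summits 182 to 525 bp downstream of its start, in the coding part of that exon, in all 7 libraries with a peak. GAS2 starts on the other strand 181 bp inside FANCF, so a FANCF peak is also a GAS2 promoter peak. Opposite-strand long non-coding RNA genes start 42 bp upstream of FANCD2 (ENSG00000291078) and 24 bp upstream of FANCL (ENSG00000273063), and their peaks cannot be told apart from those of the coding gene.

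Rb was found at nearly all of these promoters in the DMSO cultures, without inhibitor. Bound means a promoter peak in both libraries of a group. Under DMSO, 9 of 10 genes were bound in OVCAR-3 (all but FANCD2), where 26.8% of all protein-coding genes were, and 8 of 10 in Kuramochi (all but FANCD2 and FANCF), where 24.9% were. Under INX-315, 10 of 10 were bound in OVCAR-3 beside 55.5% of all genes and 9 of 10 in Kuramochi (all but FANCD2) beside 53.2%. A peak was present in all 8 Rb libraries at 8 of the 10 promoters, and at 18.8% of all genes. FANCM counted in OVCAR-3 DMSO and in all 8 libraries only through its upstream peak, inside the gene FKBP3. With summits limited to within 500 bp of a start, 8 of 10 were bound in OVCAR-3 DMSO, beside 4793 of 19962 genes. A peak was then present in all 8 libraries at 7 of 10, beside 3207 of 19962 genes. The IgG2a libraries had no peak at any of the 10.

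No promoter of the family was gained or lost. Gained means bound under INX-315 with no peak in either DMSO library, which described 16.2% of all genes in OVCAR-3 and 14.0% in Kuramochi but 0 of the 10 in either line. Lost is the reverse, and it described 0.00501% and 0.0150% of all genes and 0 of the 10. With peak lists cut to equal length within a line, 2.33% and 2.03% of all genes were gained, and still 0 of the 10. All 10 promoters had a peak in DMSO library 2 of each line, so none could count as gained with that library in use, and the 0 gained depended on single libraries. Without DMSO library 2 of OVCAR-3, FANCD2 would count as gained in that line, and without DMSO library 2 of Kuramochi, FANCF would count as gained there. Peaks limited to q-values of at most 0.001 also made FANCD2 gained in OVCAR-3. A missing peak means that binding was not detectable at that depth.

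Strength of binding was taken as summit height, the fragments at the summit divided by the mean background of the library in fragments per base. The peak lists held 6162 and 7984 peaks in OVCAR-3 DMSO and 13031 and 17281 in OVCAR-3 INX-315, and 5221 and 8794 in Kuramochi DMSO and 15244 and 13395 in Kuramochi INX-315. Mean background, the measure of depth, was 0.495 and 0.501 in OVCAR-3 DMSO, 0.307 and 0.421 in OVCAR-3 INX-315, 0.445 and 0.380 in Kuramochi DMSO, and 0.405 and 0.216 in Kuramochi INX-315. Heights were tested with limma over the 3760 protein-coding genes that had a promoter peak with a recovered height in all 8 Rb libraries. Almost all of them rose: 99.0% passed an adjusted p of 0.1 upwards in OVCAR-3, 95.8% in Kuramochi and 99.8% with the lines averaged. The median change over all genes tested was 1.78 log2 units in OVCAR-3, 1.51 in Kuramochi and 1.64 averaged. A rise of a single gene is therefore described below beside this shift, and a greater share of fragments in peaks cannot be told apart here from more Rb at each site.

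**Figure D2:**
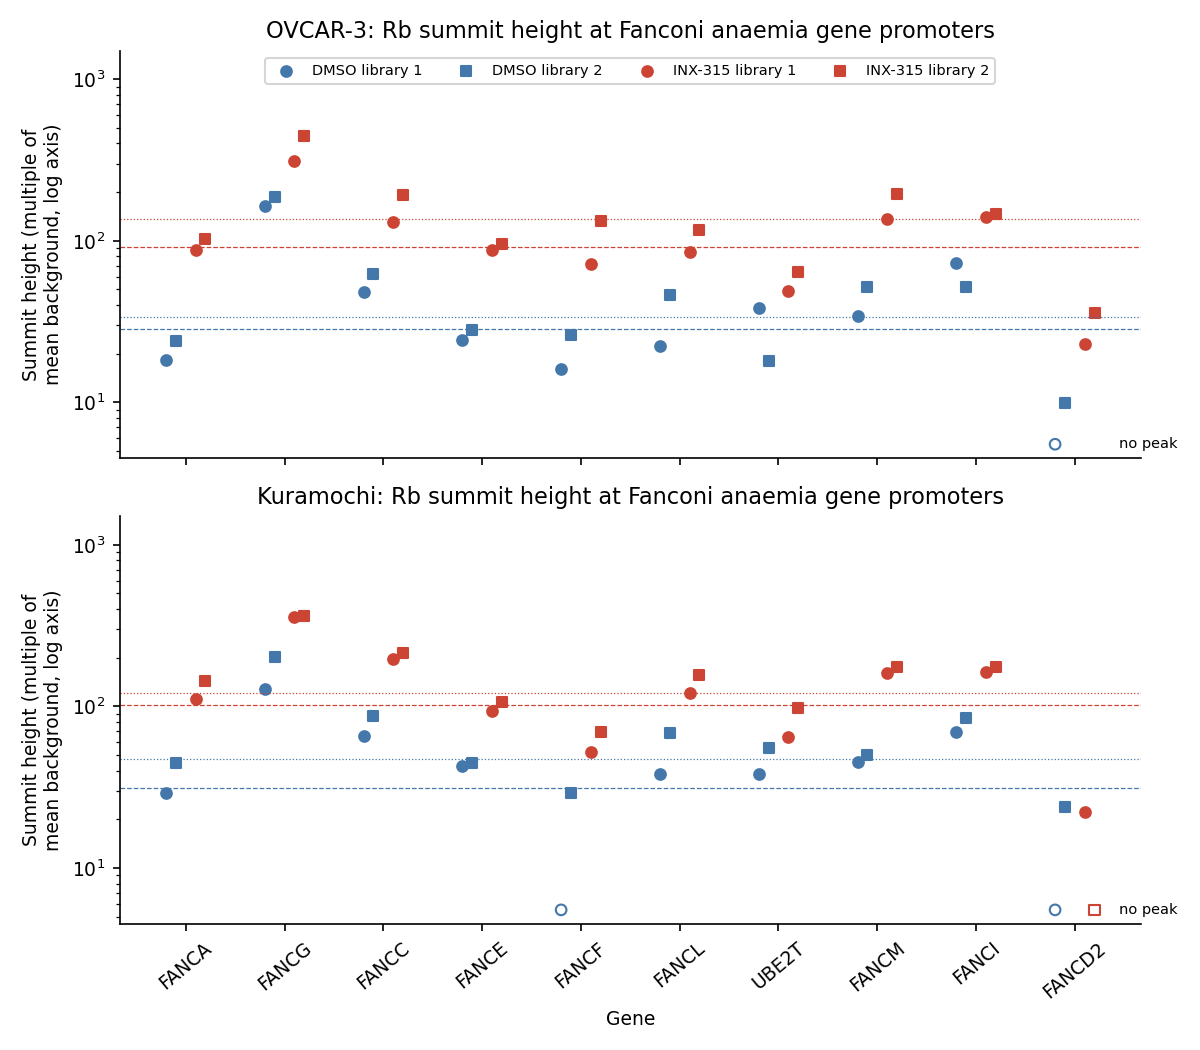
Summit height (vertical log axis, multiples of the mean background of the library) at the 10 promoters in OVCAR-3 (top) and Kuramochi (bottom), 1 point per Rb library, with open symbols at the bottom where a library had no peak. Dashed and dotted lines give the median over the 3760 genes tested in library 1 and library 2 of each group; FANCG is the highest of the 10 in every library and FANCD2 has no peak in 3 of 8.

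FANCG, a core subunit that pairs with FANCA, carried the strongest Rb peak of the family. Its height in OVCAR-3 was 164 and 185 times background with DMSO and 313 and 445 times with INX-315. Kuramochi cells gave 128 and 203 with DMSO, then 356 and 361 with INX-315. The treated libraries were all above the untreated ones in both lines. In each library the peak ranked between the 98.5 and 99.7 percentile of that library's list by p-value. The log2 change was 1.10 ± 0.37 (SE) in OVCAR-3 (limma, adjusted p = 0.0038) and 1.15 ± 0.37 in Kuramochi (limma, adjusted p = 0.0031), both below the median of all genes.

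FANCA, the core subunit mutated in most patients, started low and had the largest change of the 8 family genes tested in OVCAR-3. The heights there were 18.2 and 23.9 under DMSO, from 9 and 12 fragments, and 88.1 and 102 under INX-315. Kuramochi gave 29.2 and 44.8, then 111 and 144 after treatment. Treated and untreated libraries did not overlap in either line. The log2 change was 2.19 ± 0.43 in OVCAR-3 (limma, adjusted p = 2.5e-06) and 1.80 ± 0.43 in Kuramochi (limma, adjusted p = 0.00012). One OVCAR-3 INX-315 library had a second, small FANCA peak of 5 fragments at an internal start (chr16:89738983-89739293).

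FANCC, FANCE and FANCF form the other arm of the core complex, with FANCF as the adaptor between subcomplexes and FANCE as the contact to FANCD2. At FANCC the heights were 48.5 and 61.8 in OVCAR-3 DMSO, 131 and 193 in OVCAR-3 INX-315, 65.2 and 86.9 in Kuramochi DMSO and 195 and 213 in Kuramochi INX-315. Its peak spanned 939 to 1482 bp, the greatest width reached in the family. FANCE gave 24.3 and 27.9, then 88.1 and 95.1 in OVCAR-3, and 42.7 and 44.8, then 93.8 and 107 in Kuramochi. For both genes the treated libraries stood above the untreated ones without overlap. FANCC changed by 1.53 ± 0.42 log2 units in OVCAR-3 and 1.44 ± 0.42 in Kuramochi (limma, adjusted p = 0.00043 and 0.0013), and FANCE by 1.81 ± 0.43 and 1.19 ± 0.43 (limma, adjusted p = 5.7e-05 and 0.0075). The FANCE call in Kuramochi did not hold on the fold enrichment of the peak caller (0.85, limma, adjusted p = 0.11).

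FANCF had a peak in 3 of the 4 DMSO libraries. Its heights were 16.2 and 25.9 in OVCAR-3 DMSO, from 8 and 13 fragments, and 71.8 and 133 in OVCAR-3 INX-315. The peak of 8 fragments stood at the 0.503 percentile of its list by p-value and that of 13 at the 42.5 percentile. In Kuramochi 1 DMSO library had no peak, the other gave 29.0, and the INX-315 libraries gave 51.9 and 69.5. Every treated value was above every untreated value that could be measured. FANCF was not among the genes tested in the joint fit, and with OVCAR-3 fitted alone its log2 change was 2.26 ± 0.46 (limma, adjusted p = 7.4e-06). That fit called 9 of 9 family genes and 5252 genes in total, where 5352 genes were bound in OVCAR-3 DMSO, so the call does not set FANCF apart.

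FANCL and UBE2T, the ligase and conjugating enzyme that place ubiquitin on the ID2 pair, were bound at like heights under DMSO in Kuramochi. FANCL had 22.2 and 45.9 in OVCAR-3 DMSO and 84.8 and 117 in OVCAR-3 INX-315. Its Kuramochi values were 38.2 and 68.5, then 121 and 157. The change was 1.64 ± 0.43 log2 units in OVCAR-3 and 1.43 ± 0.43 in Kuramochi (limma, adjusted p = 0.00025 and 0.0016). UBE2T had 38.4 and 17.9 in OVCAR-3 DMSO, against 48.9 and 64.2 under INX-315. In Kuramochi it had 38.2 and 55.3, then 64.2 and 97.3. Treated values were again above untreated ones without overlap in both lines.

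UBE2T had the smallest change of the 8 genes tested, 1.09 ± 0.43 log2 units in OVCAR-3 (limma, adjusted p = 0.012) and 0.78 ± 0.43 in Kuramochi (limma, adjusted p = 0.073). Those calls rested on single libraries. In OVCAR-3 the change was 0.55 without DMSO library 2 (limma, adjusted p = 0.34), in which the peak had 9 fragments and a 95% counting interval (exact Poisson) of 8.21 to 34.1 on its height. In Kuramochi it was 0.52 without DMSO library 1 and 0.48 without INX-315 library 2 (limma, adjusted p = 0.325 and 0.42), and 0.40 on the fold enrichment (limma, adjusted p = 0.41). Against all 3760 genes, its change averaged over the lines stood at the 3.56 percentile.

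FANCM, the DNA translocase that anchors the core complex, had a pair of Rb peaks in its promoter. The higher one lay 1573 to 1632 bp upstream of the FANCM start, 124 to 183 bp inside FKBP3, a peptidyl-prolyl isomerase gene transcribed from the other strand, counted from the main FKBP3 start. That peak gave 34.4 and 51.8 in OVCAR-3 DMSO and 137 and 195 in OVCAR-3 INX-315, and 44.9 and 50.0 in Kuramochi DMSO and 161 and 176 in Kuramochi INX-315. It rose by 1.95 ± 0.43 log2 units in OVCAR-3 and 1.83 ± 0.43 in Kuramochi (limma, adjusted p = 1.7e-05 and 9.8e-05).

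At the FANCM start itself binding was weaker in each library. No peak was called in DMSO library 1 of OVCAR-3, library 2 gave 29.9, and the OVCAR-3 INX-315 libraries gave 71.8 and 140. Kuramochi gave 24.7 and 42.1, then 86.4 and 102 after treatment. The treated values were above the untreated ones in both lines here too. Since 1 library had no peak, this position had no value in the joint fit.

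FANCI and FANCD2, the partners of the ID2 clamp, were far apart. FANCI had 72.8 and 51.8 in OVCAR-3 DMSO and 140 and 147 in OVCAR-3 INX-315. Its Kuramochi values were 69.6 and 84.3, then 163 and 176. The groups did not overlap, and the log2 change was 1.23 ± 0.43 in OVCAR-3 and 1.14 ± 0.43 in Kuramochi (limma, adjusted p = 0.0045 and 0.0091). On the fold enrichment the Kuramochi change was 0.77 (limma, adjusted p = 0.13).

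FANCD2 had the weakest peak of the family. It was seen in 5 of the 8 libraries, with no peak and then 10.0 in OVCAR-3 DMSO, 22.8 and 35.7 in OVCAR-3 INX-315, no peak and 23.7 in Kuramochi DMSO, and 22.2 and no peak in Kuramochi INX-315. The OVCAR-3 DMSO peak had 5 fragments and stood at the 1.85 percentile of its list. In Kuramochi the 1 treated value lay below the 1 untreated value, each from 9 fragments and with counting intervals of 10.2 to 42.2 and 10.8 to 45.0. FANCD2 entered no test. The Kuramochi INX-315 library without a peak was also the shallowest, with a mean background of 0.216. The DMSO libraries without a peak were deeper, at 0.495 in OVCAR-3 and 0.445 in Kuramochi. Depth as a cause was not tested.

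**Figure D3:**
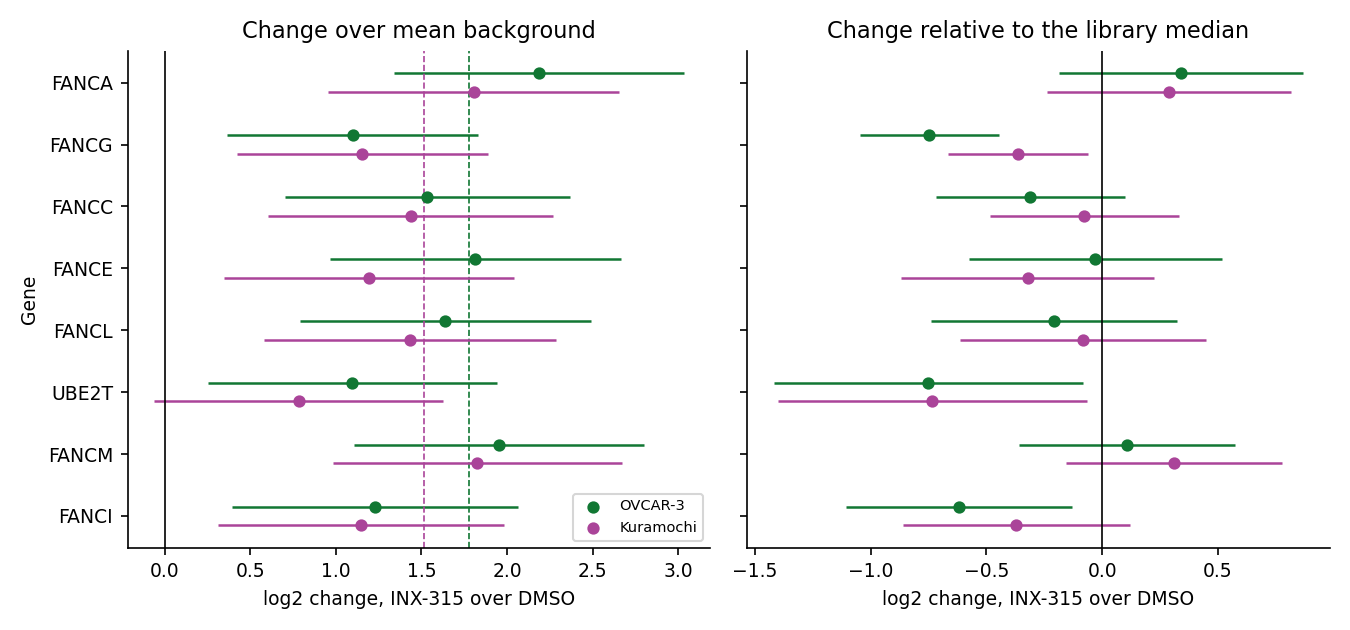
Change of summit height under INX-315 for the 8 genes tested (log2, horizontal axis), as point and 95% confidence interval from limma, for OVCAR-3 (green) and Kuramochi (purple). The left panel is over mean background, with dashed lines at the median of all genes tested (1.78 and 1.51), and the right panel is relative to the library median; FANCG, FANCI and UBE2T lie left of 0 in the right panel in both lines.

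The rise of the 8 family genes that could be tested was close to that of all 3760. All 8 passed the threshold upwards in OVCAR-3, in Kuramochi and with the lines averaged, where 99.0%, 95.8% and 99.8% of all genes did, so the calls do not set them apart. Treated libraries were above untreated ones for 8 of 8 genes in both lines, beside 99.5% of genes tested in OVCAR-3, 97.8% in Kuramochi and 97.3% in both. The median change of the 8 was 1.59 log2 units in OVCAR-3, 1.31 in Kuramochi and 1.49 averaged, slightly under the medians of all genes tested.

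In height itself the 8 genes stood somewhat above the typical bound promoter. Their median was 36.3 and 48.8 in OVCAR-3 DMSO, where the median of all genes tested was 28.3 and 33.9. In Kuramochi DMSO it was 43.8 and 61.5 against 31.5 and 47.4. Under INX-315 it was 107 and 131 against 91.4 and 136 in OVCAR-3, and 139 and 166 against 101 and 120 in Kuramochi. These 8 were thus above the median gene in 7 of the 8 libraries, and OVCAR-3 INX-315 library 2 was the exception. With FANCD2 and FANCF added where they had a peak, the median of the family in OVCAR-3 INX-315 library 1 was 88.1, also below that of the genes tested.

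Relative to the shift, FANCG, FANCI and UBE2T lagged. With each library centred on its own median, FANCG rose less than the median by 0.75 log2 units in OVCAR-3 (change of -0.75, limma, adjusted p = 0.0025), and was the 1 of 8 genes called there. Of all genes tested, 8.88% were called below and 3.70% above the library median in OVCAR-3. In Kuramochi 0 of 8 were called in either direction by limma, beside 5.88% of all genes below and 4.02% above. At an unadjusted p under 0.05 there were 2 of 8, beside 22.2% of all genes. With the lines averaged, 3 of 8 were called below and 0 above, beside 15.5% and 9.04% of all genes. They were FANCG (-0.55, 95% CI -0.77 to -0.34, limma, adjusted p = 0.00069), FANCI (-0.49, limma, adjusted p = 0.045) and UBE2T (-0.74, limma, adjusted p = 0.027). Only the FANCG call, among these 3, stood whichever library was left out, in 8 of 8 fits (-0.61 to -0.50 log2 units). FANCI was called in 4 of 8 (-0.67 to -0.29) and was lost without OVCAR-3 DMSO 1, OVCAR-3 INX-315 2, Kuramochi DMSO 1 or Kuramochi INX-315 2, at -0.29, -0.37, -0.43 and -0.46. UBE2T was called in 5 of 8 (-1.07 to -0.39) and was lost without OVCAR-3 DMSO 1, OVCAR-3 INX-315 2 or Kuramochi INX-315 1, at -0.39, -0.70 and -0.66. FANCA (0.31) and FANCM (0.21) lay above the library median but were not called (limma, adjusted p = 0.24 and 0.39), and neither were FANCC (-0.19), FANCE (-0.18) and FANCL (-0.14, adjusted p = 0.36, 0.56 and 0.62).

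None of the 8 genes tested was called for a difference between the lines, and FANCD2 and FANCF had no such test. The change in OVCAR-3 minus that in Kuramochi ranged from -0.05 log2 units at FANCG to 0.62 at FANCE (limma, adjusted p = 0.998 for each of the 8), and 0 of 8 were called, as 0% of all genes were. At an unadjusted p under 0.05 there were 0 of 8, beside 2.63% of all genes. The intervals were wide: -0.58 to 1.82 at FANCE and -1.09 to 0.98 at FANCG. With each library centred on its median, limma again called 0 of 8 for the difference, beside 9 of 3760 genes. At an unadjusted p under 0.05 (limma) that fit had 0 of 8, beside 376 genes.

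Most of the rest of the pathway was bound too. Of 19 further genes listed for it (accessory core subunits, the deubiquitinase pair and downstream repair factors), 13 were bound in OVCAR-3 DMSO and 11 in Kuramochi DMSO, where 26.8% and 24.9% of all genes were. Under INX-315, 18 were bound in each line, with ERCC4 as the exception, beside 55.5% and 53.2%. FANCB and PALB2 were gained in OVCAR-3 (2 of 19, beside 16.2% of all genes). In Kuramochi 3 of the 19 were gained, PALB2 and FAN1 among them, beside 14.0%, and none was lost. A peak was present in all 8 libraries at 10 of them, beside 18.8% of all genes. All 10 were called upwards in each line, as 99.0% and 95.8% of genes tested were. The lowest of these in Kuramochi passed narrowly (0.73, 95% CI -0.12 to 1.57, limma, adjusted p = 0.097) and was not called with that line fitted alone (limma, adjusted p = 0.11). Their averaged change ran from 1.24 to 2.25 log2 units, the highest at FAAP20, which links the core complex to ubiquitin.

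Relative to the library median and with the lines averaged, 2 of these 10 genes rose more and 1 rose less, beside 9.04% and 15.5% of all genes. FAAP20 was 0.57 log2 units above it and CENPX, a histone-fold partner of FANCM, 0.34 above (limma, adjusted p = 0.018 and 0.082). USP1, which removes ubiquitin from the ID2 pair, was at -0.38 (limma, adjusted p = 0.030). FAAP20 and CENPX were called in neither line alone, with adjusted p of 0.203 in OVCAR-3 and 0.102 in Kuramochi at FAAP20 and of 0.297 and 0.291 at CENPX (limma). Within a line, CENPS, the partner of CENPX, was called below the median in OVCAR-3 (-0.78, limma, adjusted p = 0.046), and 2 genes were called below it in Kuramochi, USP1 (-0.50, limma, adjusted p = 0.079) being one. USP1 was also among the strongest peaks, at 66.7 and 97.7 in OVCAR-3 DMSO, 209 and 281 in OVCAR-3 INX-315, 146 and 237 in Kuramochi DMSO and 309 and 459 in Kuramochi INX-315. CENPX gave 109 and 77.8, then 313 and 559 in OVCAR-3, and 78.6 and 113, then 321 and 366 in Kuramochi.

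**Figure D4:**
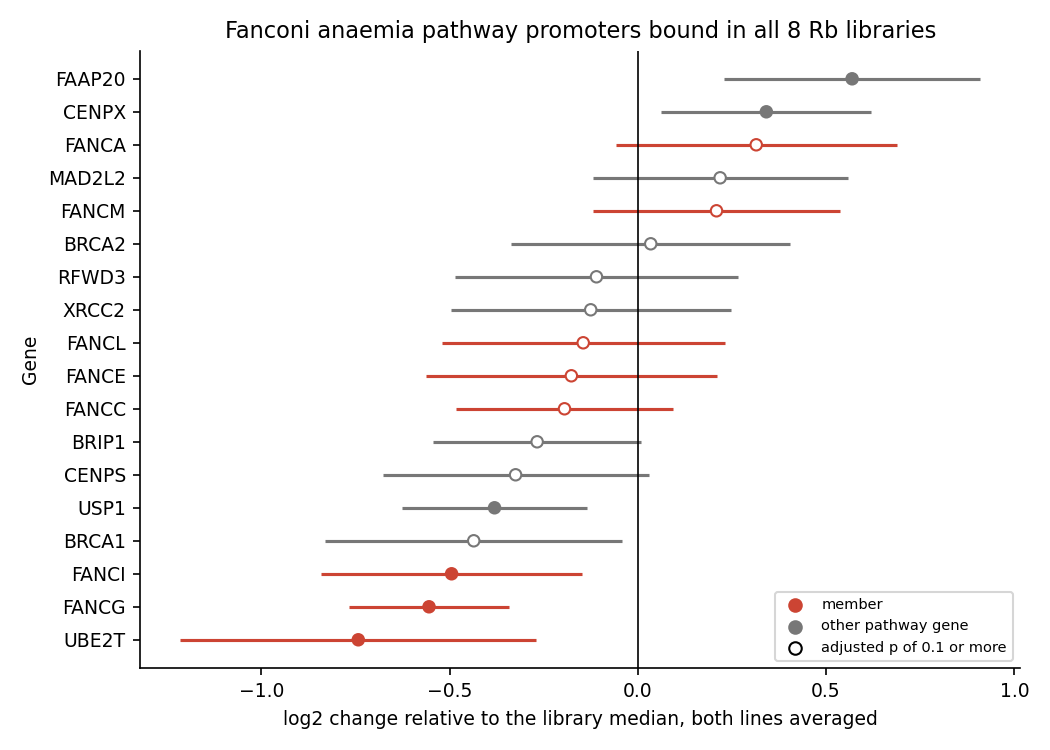
Change relative to the library median with both lines averaged (log2, horizontal axis), as point and 95% confidence interval from limma, for the 8 family genes (red) and 10 other pathway genes (grey) with a peak in all 8 Rb libraries; open points had an adjusted p of 0.1 or more. UBE2T (-0.74) is lowest and FAAP20 (0.57) highest.

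The genes whose heights over the 8 libraries were most like the median of the 8 family genes were CFAP57 and EBNA1BP2, which share 1 peak, then DHRS7B, ALDH3A2 and ZNF584. Likeness was the Euclidean distance in log2 height, which was 0.23 for the first pair and 0.49 for ZNF584. EBNA1BP2 had 36.4 and 45.9 in OVCAR-3 DMSO, 108 and 124 in OVCAR-3 INX-315, 40.4 and 57.9 in Kuramochi DMSO and 133 and 181 in Kuramochi INX-315.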

How the data were processed

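Per the submitters' processing notes, the tools were Bowtie2 2.3.4.1, MACS2 2.2.7.1, deepTools 3.5.0 and DiffBind on build hg38. Per the study's methods, each library was peak-called separately with the IgG2a library of its line as control, at a q-value of 0.05. The deposited lists hold, for each peak, the authors' fold enrichment (a linear ratio of summit to local background) and their −log10 p-value and −log10 q-value. No read counts were used here.

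Fragments at each summit were recovered as the whole number that returns both the fold enrichment and the p-value (relative tolerance 3e-05), for at least 99.7% of peaks of each Rb library, against at most 0.353% for numbers offset by 0.5. The most frequent local background of a library was its mean background. Intervals on heights are exact Poisson and cover counting error only. The recovery and the fit were tested on simulated data. The simulated fit changed a minority of genes and held no shift common to all, so it does not cover the shift seen here.

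The value of a gene was its highest promoter peak. log2 heights of the 8 Rb libraries were fitted with limma 3.58.1 (R 4.3.3, empirical Bayes with trend, two-sided) with 4 groups and no replicate block, Benjamini-Hochberg over the 3760 genes tested, and called at an adjusted p under 0.1, as in the study. The p-values rest on 2 libraries a group and on a spread shared across genes. The genes, lists and strings were chosen with earlier results of these data known. Text names the 10 genes, 19 listed pathway genes (another listed gene is not reported here), genes starting within 1000 bp on the other strand, and the 5 most alike genes. Alternatives covered the q-value, list length, promoter width, centring, scale, threshold, block and each library left out. Limiting peaks to summits within 500 bp of a start, and centring with each library left out, were chosen after seeing the data.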

Additional observations from a re-analysis of the deposited data

How the results depend on the processing

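The direction of change held for all 8 genes tested under every alternative that gave them a value but centring, which by construction removes the shift common to all genes. With each library centred on its median, the genes called numbered 1 in OVCAR-3 (below the median), 0 in Kuramochi and 3 averaged (below). Centred changes that turned negative were, in OVCAR-3, FANCC -0.31, FANCE -0.0305, FANCG -0.75, FANCI -0.62, FANCL -0.21 and UBE2T -0.75. In Kuramochi they were FANCC -0.0779, FANCE -0.32, FANCG -0.36, FANCI -0.37, FANCL -0.0832 and UBE2T -0.73. Averaged they were FANCC -0.19, FANCE -0.18, FANCG -0.55, FANCI -0.49, FANCL -0.14 and UBE2T -0.74. On the peak caller's fold enrichment 5 genes instead of 8 were called in Kuramochi, and the cause was not tested. That count stands without its share of all genes. In OVCAR-3 the same scale called 8 of 8, and 3470 of all genes against 3724 on height. Peaks with a q-value of at most 0.001 gave 1 gene gained in OVCAR-3 in place of 0, beside 3638 of 19962 genes in place of 3231. Leaving out each library in turn gave 0 to 1 gained in each line, 7 to 9 called in OVCAR-3, 7 to 8 in Kuramochi, 8 to 9 averaged and 0 for the difference. Bound genes then numbered 9 to 10 and 8 to 10 under DMSO, 10 and 9 to 10 under INX-315 (OVCAR-3, then Kuramochi), and 8 to 9 in all libraries. Other settings lowered these counts. Peaks with the summit inside the promoter gave 8 under INX-315 in Kuramochi, beside 10355 of 19962 genes. Summits within 500 bp of a start also gave 8 there, beside 9830. FANCF dropped out, its summit in Kuramochi INX-315 library 1 lying 525 bp downstream of its start. Peaks with a q-value of at most 0.001 gave 7 bound in OVCAR-3 DMSO and 7 in all libraries, beside 4643 and 3238 of 19962 genes. Equal list length gave 8 in OVCAR-3 DMSO, 8 under INX-315 in each line and 7 in all libraries. Of all 19962 genes, 4957 were then bound in OVCAR-3 DMSO and 2941 in all libraries. Under INX-315, 5794 were bound in OVCAR-3 and 4994 in Kuramochi, against 11076 and 10620 with the full lists. A promoter from 1000 bp upstream to 100 bp downstream gave 8 in OVCAR-3 DMSO and 7 in all libraries, beside 5104 and 3593 genes. Kuramochi DMSO stayed at 8 under each of these. Beside it stood 4437 genes for the q-value, 4351 for list length and 4775 for promoter width. For summits inside the promoter there were 4841, and within 500 bp of a start 4490.

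Replicate numbers are shared by the groups, but the labels tie them to nothing else. Deviations of same-numbered libraries correlated at -0.042 in OVCAR-3 and -0.0077 in Kuramochi. With the replicate number as a block, 8 of 8 genes were called in OVCAR-3, in Kuramochi and averaged, and 0 for the difference, as without it. In OVCAR-3 the 8 of 8 stand beside 3743 of the 3760 genes tested. Low peaks limit FANCD2 and FANCF most, with 5 to 15 and 8 to 56 fragments at the summit.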
